A study of Capra hircus with 7 samples.

Results

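A set of 10 genes that carry hormone signals into mammary cells was followed through all 7 RNA-seq libraries of goat mammary gland cells, in which a circular RNA had been raised or lowered. They were listed by name and not by their values: the receptors PRLR, GHR, ESR1, PGR, NR3C1 and NR3C2, the transcription factors STAT5A and STAT5B, and the feedback inhibitors SOCS2 and CISH. Of these 10 genes, 9 had a value among the 17374 genes measured. STAT5A was not analysed here. The cells came from the mammary gland of the Lanshan dairy goat and grew in 3D culture. Virus had been used to alter cirRNA28250, a circular RNA, which is an RNA whose ends are spliced to each other. There were 4 groups: cKDmix, in which cirRNA28250 was knocked down (2 libraries), c3NC, taken as its control (2 libraries), cRNA28250, the overexpression (2 libraries), and c5NC, taken as the control of the overexpression (1 library, replicate 2). The labels do not spell out the abbreviations 3NC and 5NC; the pairing of each with a treatment follows the order in which the study's design names them. The labels name no age, no lactation stage, no hormone in the medium and no number of animals, and all 4 groups share the strain, the tissue and the culture. Whether replicates are separate cultures or separate goats is not stated, so each p-value reflects the spread among these libraries alone, and that spread may be technical.

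In the mammary gland, oestrogen and progesterone drive the growth and branching of ducts, and prolactin, acting with glucocorticoids and growth hormone, brings the alveolar epithelium to milk secretion. The prolactin receptor PRLR and the growth hormone receptor GHR have no kinase of their own and signal through the bound kinase JAK2, which phosphorylates STAT5A and STAT5B; these then enter the nucleus and switch on milk protein genes and their own inhibitors, CISH and SOCS2. ESR1, PGR, NR3C1 and NR3C2 encode the oestrogen, progesterone, glucocorticoid and mineralocorticoid receptors, which are hormone-bound transcription factors.

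Luminal epithelial markers and casein genes were low in these cells, while fibroblast markers and some genes of milk fat secretion were high. Expression was measured in FPKM, fragments scaled to transcript length and library size, so levels may be set side by side between genes. Of 14 luminal epithelial markers, 13 were measured, and their summed level was between 8.40 and 19.4 FPKM in each library. Most of that sum was CLDN4, a tight junction protein, in every library but c5NC, and CLDN4 ranged from 4.45 to 15.8 FPKM over all 7. In c5NC it was at 4.45 FPKM of a sum of 15.5 FPKM. KRT19 and KRT7, both keratins, were at 5.53 and 3.81 FPKM in c5NC and at most 0.83 and 1.74 FPKM in the other libraries, whereas EPCAM, an epithelial adhesion protein, stayed at or below 0.02 FPKM and KRT8, a luminal keratin, at or below 0.28 FPKM in all 7. All 11 fibroblast markers were at 1 FPKM or more in every library, with sums from 13126 to 22491 FPKM. Of 16 milk protein and lactation genes, 8 were measured and 4 were at 1 FPKM or more in every library, with sums from 433 to 629 FPKM over the 8. These 4 were PLIN2, a lipid droplet coat protein (229 to 394 FPKM), MFGE8 (55.1 to 214 FPKM), XDH (35.4 to 94.5 FPKM) and CIDEA (9.95 to 23.9 FPKM), and the caseins CSN1S2 and CSN3 reached at most 0.08 and 0.18 FPKM. BTN1A1, a milk fat globule gene, and LPO, also on this list, reached at most 0.02 and 0.25 FPKM. The c5NC library stood apart. Basal or myoepithelial markers summed to between 1453 and 2466 FPKM in the other 6 libraries and to 247 FPKM in c5NC. That sum was mostly the contractile genes TAGLN (162 to 1296 FPKM), ACTA2 (63.5 to 834 FPKM) and MYLK (15.9 to 384 FPKM). The basal keratins went the other way. KRT14 was at 4.22 FPKM in c5NC and at most 0.78 FPKM in the others, and KRT5 at 0.53 and at most 0.34 FPKM. TP63 stayed at or below 0.05 FPKM in all 7. PPARG, a fat cell regulator, was at 0.39 to 7.57 FPKM in the others and at 40.1 FPKM in c5NC. Any result that rests on c5NC rests on this 1 library.

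The 9 genes fell into an expressed set and a near-silent set. SOCS2 was the most abundant of them, at 91.7 to 168 FPKM, between the 95.4 and 97.4 percentile of all genes by level. ESR1 followed at 17.6 to 22.8 FPKM, NR3C1 at 10.5 to 21.7 FPKM, GHR at 6.31 to 14.0 FPKM and STAT5B at 7.33 to 9.71 FPKM. These 5 genes passed the filter for testing, 1 FPKM or more in at least 2 libraries. PRLR, PGR, NR3C2 and CISH did not pass it; only NR3C2 exceeded 1 FPKM anywhere, in a single library. ESR1 and STAT5B were among the steadiest genes measured: the SD of log2(FPKM + 1) over the 7 libraries was 0.15 for each, at the 3.98 percentile of tested genes for ESR1 and the 3.73 percentile for STAT5B. GHR, SOCS2 and NR3C1 varied more than these, with SDs of 0.38, 0.31 and 0.32. They stood at the 49.0, 35.4 and 37.8 percentile of tested genes, so none was among the more variable genes.

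**Figure D1:**
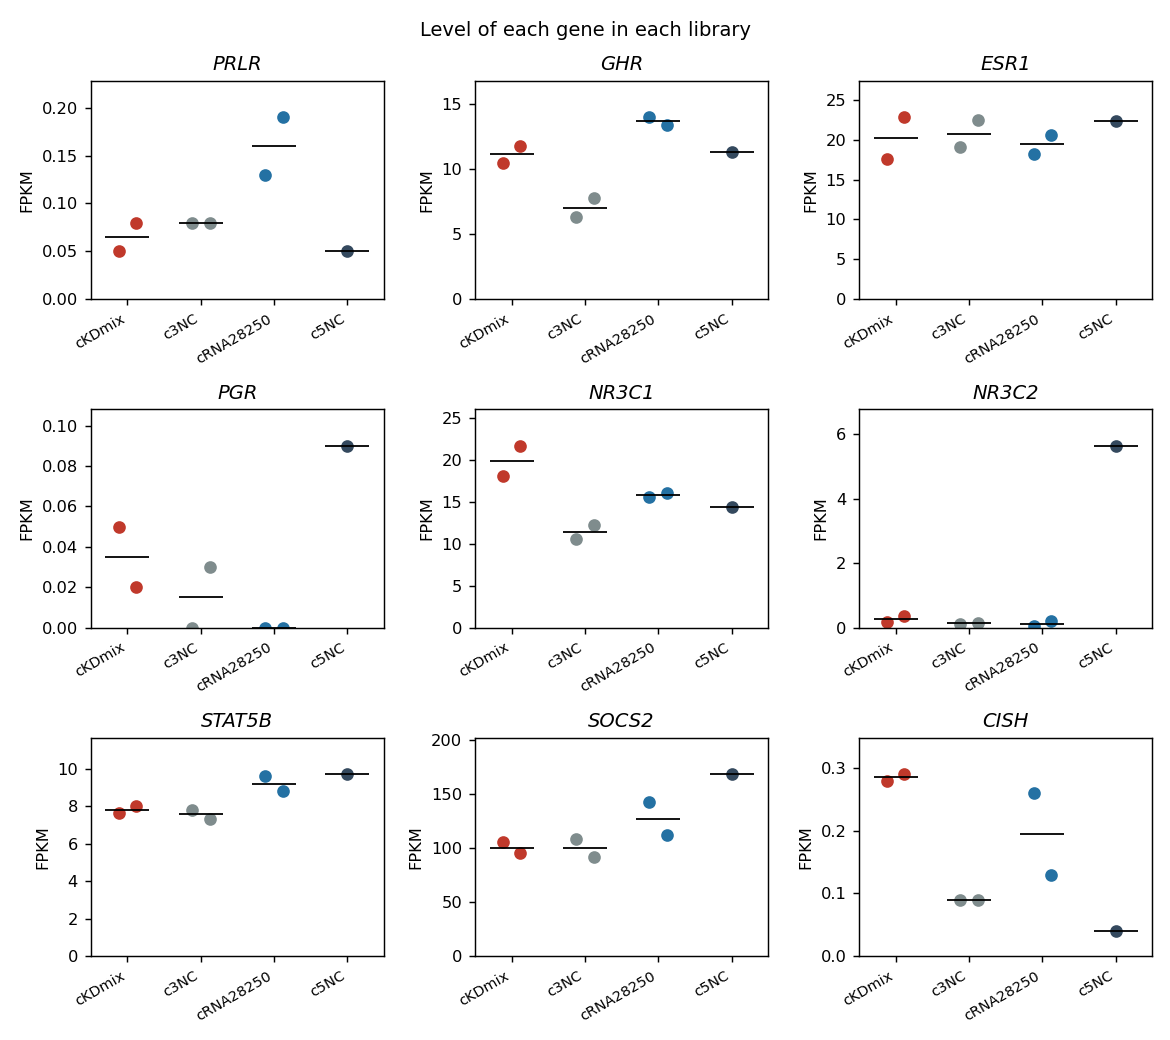
Level in FPKM (vertical axes, each starting at 0 and scaled to its gene) of the 9 measured genes in cKDmix, c3NC, cRNA28250 and c5NC (horizontal axes). Each point is a library and each line a group mean; NR3C1 in cKDmix (18.0 and 21.7 FPKM) lies above NR3C1 in c3NC (10.5 and 12.2 FPKM), and NR3C2 is above 1 FPKM in c5NC only.

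PRLR, the receptor that receives prolactin, was close to the floor of the table. It stood at 0.05 and 0.08 FPKM in cKDmix, against 0.08 in each c3NC library, and at 0.13 and 0.19 FPKM in cRNA28250, against 0.05 FPKM in c5NC. Both cRNA28250 libraries lay above the other 5, and in a limma fit without the filter the difference of cRNA28250 from c5NC was 0.14 on the log2(FPKM + 1) scale (Benjamini-Hochberg adjusted p = 0.1809). PGR (NCBI Gene 102175599) was at 0.05 and 0.02 FPKM in cKDmix, against 0 and 0.03 FPKM in c3NC, was listed at 0 in both cRNA28250 libraries and was at 0.09 FPKM in c5NC. These values put PRLR (NCBI Gene 100861318) between the 15.3 and 22.6 percentile of all genes by level, and PGR between the 4.02 and 22.8 percentile.

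CISH, the STAT5-induced inhibitor that docks on the receptor, was also low. It was at 0.28 and 0.29 FPKM in cKDmix, against 0.09 in each c3NC library, and at 0.26 and 0.13 FPKM in cRNA28250, against 0.04 FPKM in c5NC. The libraries of neither pair overlapped, and both treated groups were higher than their controls. The share of all genes that separate in this way was not computed, and with so few libraries separation alone says little. In a limma fit without the filter the CISH (NCBI Gene 102169142) difference between cKDmix and c3NC was 0.24 on the log2(FPKM + 1) scale and did not pass (Benjamini-Hochberg adjusted p = 0.0543). That between cRNA28250 and c5NC was 0.20 (limma, Benjamini-Hochberg adjusted p = 0.2198).

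NR3C2, the mineralocorticoid receptor, was at 0.18 and 0.35 FPKM in cKDmix, against 0.11 and 0.15 FPKM in c3NC. In cRNA28250 it was at 0.05 and 0.19 FPKM, against 5.64 FPKM in c5NC. The c5NC value stood apart from all 6 other libraries, whether treated or control. Without the filter, limma gave NR3C2 (NCBI Gene 102172834) a log2 fold change of −2.57 for cRNA28250 over c5NC (Benjamini-Hochberg adjusted p = 0.002964) and of −2.56 for c3NC over c5NC (adjusted p = 0.002739). The same single library decides both values.

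The comparison of cKDmix with c3NC asks what changed when cirRNA28250 was lowered. NR3C1 and GHR were higher in the knockdown, and no difference of ESR1, STAT5B or SOCS2 passed the test. NR3C1, the glucocorticoid receptor (NCBI Gene 102189859), was at 18.0 and 21.7 FPKM in cKDmix, against 10.5 and 12.2 FPKM in c3NC. The groups did not overlap, and the lower cKDmix library was also above cRNA28250 (15.6 and 16.0 FPKM) and c5NC (14.4 FPKM). Means were 19.8 ± 2.57 FPKM in cKDmix and 11.3 ± 1.19 FPKM in c3NC (SD, n = 2 each), and the log2 fold change of NR3C1 was 0.75 ± 0.19 (SE; 95% interval 0.32 to 1.19; limma on log2(FPKM + 1), Benjamini-Hochberg adjusted p = 0.01997). In bulk RNA, a larger share of cells that express a gene and more of its RNA per cell cannot be told apart.

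GHR, the growth hormone receptor (NCBI Gene 100860790), was at 10.5 and 11.8 FPKM in cKDmix, against 6.31 and 7.74 FPKM in c3NC. These groups did not overlap either, but both c3NC libraries were the lowest of all 7, and c5NC, at 11.3 FPKM, lay between the cKDmix libraries. The log2 fold change of GHR was 0.60 ± 0.19 (SE; 95% interval 0.16 to 1.04; limma, Benjamini-Hochberg adjusted p = 0.0433). The change is smaller on this scale than in FPKM itself, since the added 1 weighs on low values.

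The other 3 expressed genes were not called in the knockdown. ESR1, the oestrogen receptor (NCBI Gene 102189484), was at 17.6 and 22.8 FPKM in cKDmix, against 19.1 and 22.5 FPKM in c3NC, with a log2 fold change of −0.05 (95% interval −0.52 to 0.42). The cKDmix libraries of ESR1 enclosed both c3NC libraries. STAT5B, which shares most of its sequence with STAT5A, was at 7.62 and 8.01 FPKM in cKDmix, against 7.81 and 7.33 FPKM in c3NC, with a log2 fold change of 0.04 (95% interval −0.37 to 0.46). How reads shared between STAT5B (NCBI Gene 102176415) and its paralog were counted is not given in the sources used here, so its level is uncertain. SOCS2, which restrains growth hormone signalling, was at 105 and 95.3 FPKM in cKDmix, against 108 and 91.7 FPKM in c3NC, with a log2 fold change of 0.01 (95% interval −0.48 to 0.50). The groups overlapped for STAT5B and for SOCS2 (NCBI Gene 102178979), and the limma adjusted p of ESR1, STAT5B and SOCS2 lay between 0.876 and 0.9745. The intervals of these 3 genes still allow changes from −0.52 to 0.50 on the log2 scale.

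**Figure D2:**
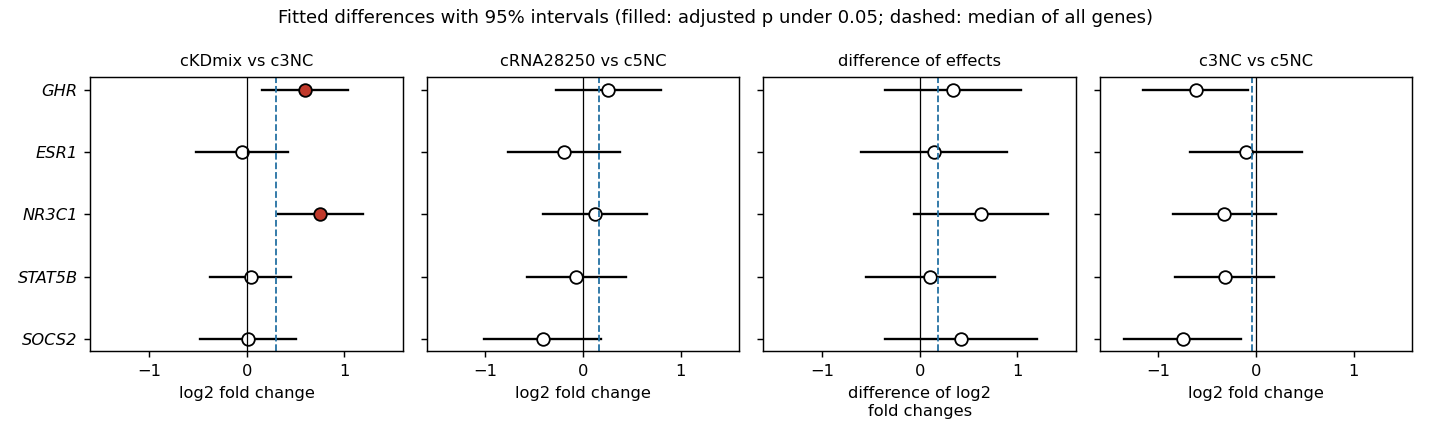
Log2 fold change (horizontal axes, on log2(FPKM + 1)) of the 5 tested genes in cKDmix over c3NC, in cRNA28250 over c5NC, in the difference between these effects, and in c3NC over c5NC. Points are limma estimates with 95% intervals, filled where the adjusted p is under 0.05, and dashed lines mark the median of all tested genes; the filled points are NR3C1 (0.75) and GHR (0.60) in the knockdown.

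In the knockdown, 2 of the 5 tested genes were called and both were higher; limma called 34.4% of all 12180 tested genes, 26.8% higher (3270 genes) and 7.56% lower (921 genes). Median ratio scaling turned this split to 1801 higher and 1921 lower, and quantile normalization to 1339 and 1390. The median log2 fold change of all tested genes was 0.30, which leaves NR3C1 0.46 and GHR 0.30 above that shift. Scaling by median ratios moved the median of all genes to −0.02, and NR3C1 then stood at 0.40 (limma, Benjamini-Hochberg adjusted p = 0.1491) and GHR at 0.25 (adjusted p = 0.3504). With quantile normalization NR3C1 was at 0.50 and GHR at 0.20, and neither was called (limma, adjusted p = 0.0996 and 0.469). Against c5NC in place of c3NC the log2 fold change of NR3C1 was 0.43 and that of GHR −0.02 (limma, adjusted p = 0.1988 and 0.956). Both calls were lost without either cKDmix library and without either c3NC library: NR3C1 then ranged from 0.63 to 0.88 with adjusted p from 0.06995 to 0.153, and GHR from 0.47 to 0.73 with adjusted p from 0.1085 to 0.2688.

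**Figure D3:**
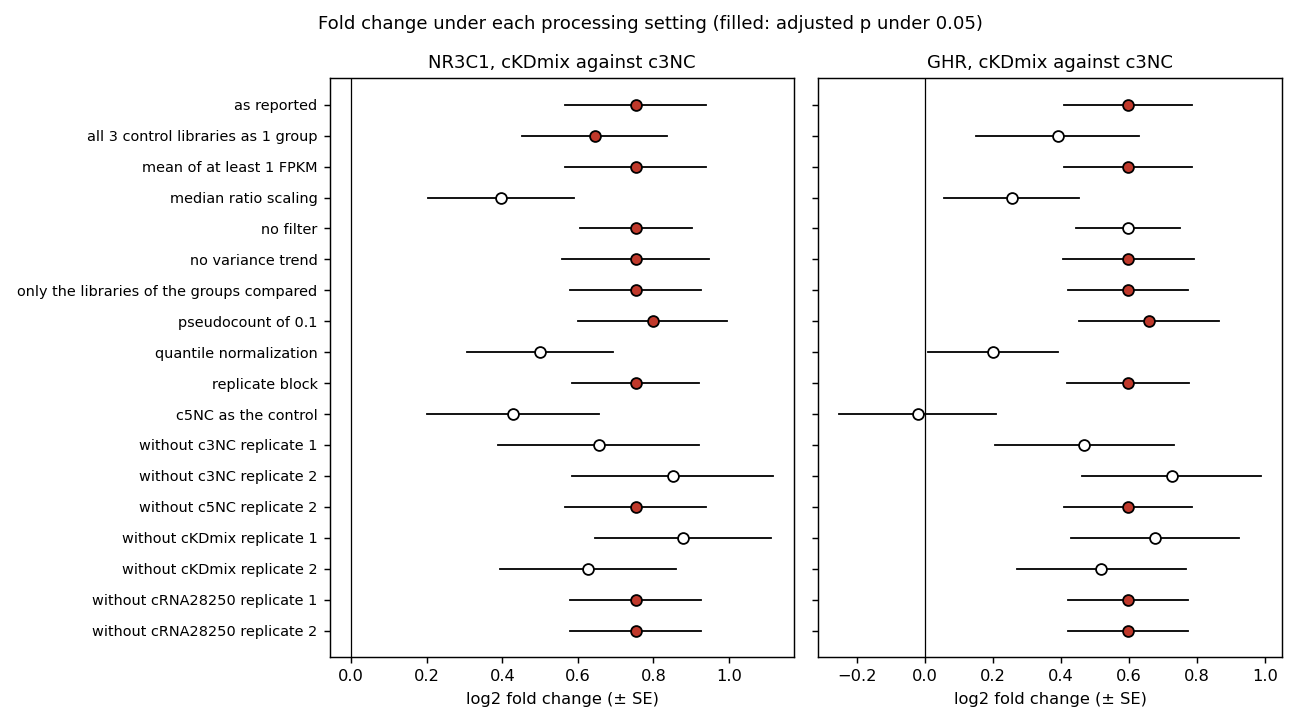
Log2 fold change of NR3C1 (left) and GHR (right) in cKDmix over c3NC under each processing setting, with standard errors as horizontal lines; filled points have a limma adjusted p under 0.05. NR3C1 stays above 0 in every setting shown, between 0.40 and 0.88, and GHR is at −0.02 when c5NC is the control.

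The comparison of cRNA28250 with c5NC asks what changed when cirRNA28250 was raised, and none of the 5 expressed genes was called. GHR was at 14.0 and 13.4 FPKM in cRNA28250, against 11.3 FPKM in c5NC, a log2 fold change of 0.26 (95% interval −0.28 to 0.79; limma, Benjamini-Hochberg adjusted p = 0.557). Both cRNA28250 libraries were the highest of all 7 for GHR. SOCS2 was at 142 and 112 FPKM in cRNA28250, against 168 FPKM in c5NC, a log2 fold change of −0.41 (95% interval −1.01 to 0.19; limma, adjusted p = 0.391). Both cRNA28250 libraries were lower than c5NC but higher than all 4 cKDmix and c3NC libraries.

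NR3C1 was at 15.6 and 16.0 FPKM in cRNA28250, against 14.4 FPKM in c5NC, with a log2 fold change of 0.12 (95% interval −0.41 to 0.65), and median ratio scaling turned its sign (−0.07). ESR1 was at 18.2 and 20.6 FPKM in cRNA28250, against 22.3 FPKM in c5NC, with a log2 fold change of −0.19 (95% interval −0.77 to 0.38). STAT5B was at 9.62 and 8.80 FPKM in cRNA28250, against 9.71 FPKM in c5NC, with a log2 fold change of −0.07 (95% interval −0.58 to 0.44). None of these 3 differences was larger than the spread that limma estimated between libraries. Limma called 0 of the 5 genes, 0 at an unadjusted p under 0.05, and 7.62% of all tested genes, 5.07% higher and 2.55% lower (618 and 310 genes; 374 and 349 with quantile normalization, 513 and 476 with median ratio scaling). With 1 control library the intervals are wide, and c5NC is assumed to vary like the other groups. With c3NC as the control, GHR was called higher in cRNA28250 at a log2 fold change of 0.87 (limma, adjusted p = 0.0462), while SOCS2 and STAT5B changed sign to 0.34 and 0.25 and were not called.

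The difference between the knockdown effect and the overexpression effect passed for none of the 5 genes, where limma called 7.7% of all tested genes, 4.01% higher and 3.69% lower. It was largest for NR3C1, at 0.63 on the log2 scale (95% interval −0.05 to 1.32; limma, Benjamini-Hochberg adjusted p = 0.2187), from effects of 0.75 in the knockdown and 0.12 in the overexpression. For SOCS2 it was 0.42, for GHR 0.34, for ESR1 0.15 and for STAT5B 0.11, with limma adjusted p from 0.4458 to 0.8253. No gene of the 5 reached an unadjusted p under 0.05 for this difference. The rise of NR3C1 is therefore not shown to differ between knockdown and overexpression.

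The control groups themselves differed in ways that touch both comparisons, since each shares its control with the comparison of c3NC and c5NC. SOCS2 averaged 99.8 ± 11.4 FPKM in c3NC (SD, n = 2), against 168 FPKM in c5NC, a log2 fold change of −0.75 (limma, unadjusted p = 0.0205, Benjamini-Hochberg adjusted p = 0.164). GHR averaged 7.025 ± 1.01 FPKM in c3NC (SD, n = 2), against 11.3 FPKM in c5NC, a log2 fold change of −0.62 (limma, unadjusted p = 0.0292, adjusted p = 0.2031). NR3C1 and STAT5B had log2 fold changes of −0.32 each and ESR1 of −0.10, and none of the 3 passed. Limma called 0 of the 5 genes here, against 5.8% of all tested genes (2.73% higher and 3.07% lower), and 2 reached an unadjusted p under 0.05. Without either cRNA28250 library SOCS2 passed (limma, adjusted p = 0.0383 and 0.03796).

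The order of the group means differed between genes. NR3C1 was highest in cKDmix, then cRNA28250, then c5NC, then c3NC, and no neighbours in that order overlapped. GHR was highest in cRNA28250 and lowest in c3NC, with c5NC and cKDmix overlapping between them. STAT5B and SOCS2 shared an order: c5NC, then cRNA28250, then cKDmix and c3NC, which overlapped. For ESR1 every pair of neighbouring groups overlapped. PRLR was highest in cRNA28250, with the other groups overlapping, and CISH was highest in cKDmix, then cRNA28250, c3NC and c5NC without overlap. Both lay near the floor of the table, at most at 0.19 FPKM for PRLR and 0.29 FPKM for CISH. The share of all genes whose groups separate in this way was not computed. NR3C2 and PGR were highest in c5NC.

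The make-up of each gene family was computed as a share of its summed FPKM. Within the sum of 5 steroid receptors (NR3C1, ESR1, NR3C2, PGR and ESR2), NR3C1 held 50.3% and 48.3% in cKDmix, against 35.4% and 34.9% in c3NC. It held 46.0% and 43.4% in cRNA28250, against 33.9% in c5NC, where NR3C2 held 13.3%. ESR1 held 49.1% and 50.8% in cKDmix, against 64.2% and 64.4% in c3NC, so that NR3C1 and ESR1 were near parity in the knockdown and ESR1 led in its control. NR3C2 held at most 0.78% in the other 6 libraries. These shares carry no scaling between libraries, since every value in a share comes from the same library.

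SOCS2 dominated its family. Among SOCS1 to SOCS7 and CISH it held 74.1% and 72.2% in cKDmix, against 73.3% and 72.9% in c3NC, and 79.4% and 76.9% in cRNA28250, against 81.6% in c5NC. The knockdown and its control overlapped in this share, while both cRNA28250 libraries lay below c5NC. STAT5B was a minor part of the sum of STAT2, STAT3, STAT4, STAT5B and STAT6, at 9.29% and 8.07% in cKDmix, against 8.12% and 8.78% in c3NC, and 8.01% and 10.8% in cRNA28250, against 10.3% in c5NC. Its share overlapped between treated and control libraries in the knockdown and enclosed the control in the overexpression. STAT5A is not part of these sums.

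**Figure D4:**
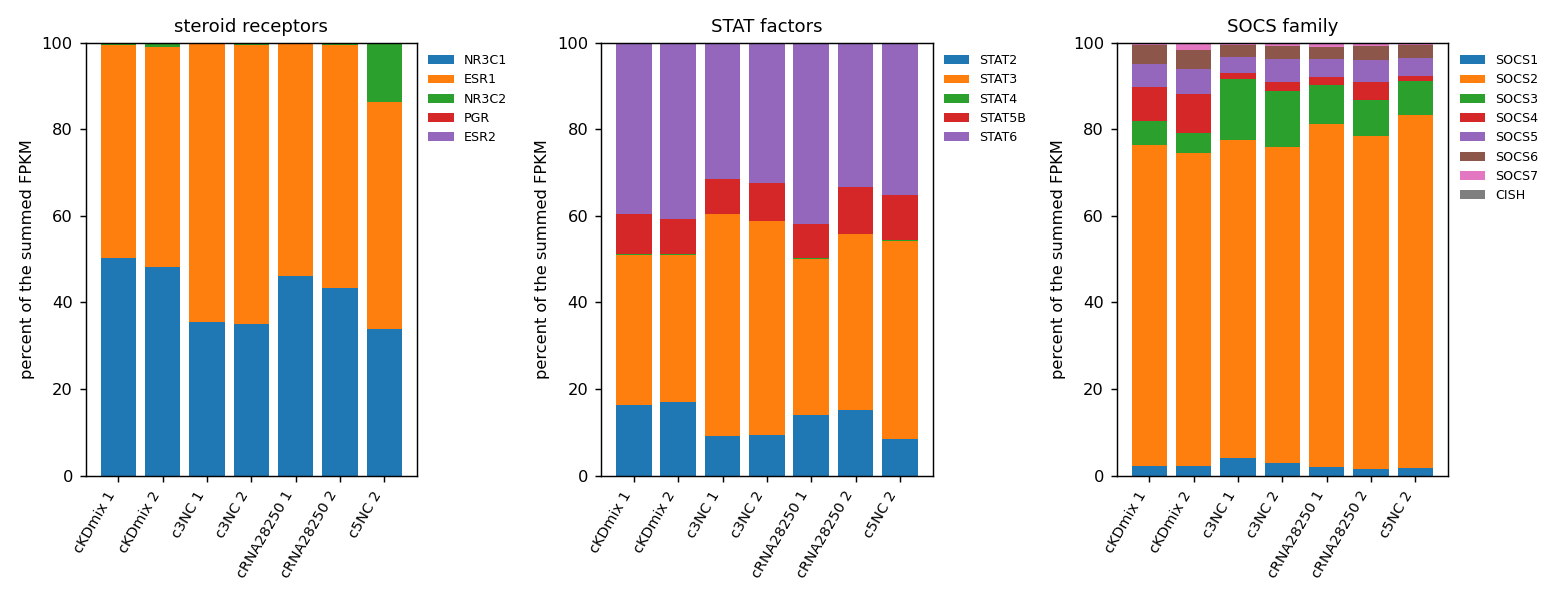
Share of the summed FPKM (vertical axes, percent) held by each of 5 steroid receptors, 5 STAT factors and the SOCS family, as named in the legends, 1 stacked bar per library. NR3C1 takes 50.3% and 48.3% of the steroid receptor sum in cKDmix and 35.4% and 34.9% in c3NC, and SOCS2 takes 72.2% to 81.6% of the SOCS family.

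The pathway genes around these receptors are read against all tested genes, of which limma called 26.8% higher and 7.56% lower in cKDmix, and 5.07% higher and 2.55% lower in cRNA28250. Of the 37 pathway gene calls named below for the knockdown, 14 held in every alternative that left out no cKDmix or c3NC library: those of IL6ST, SOCS3, SOCS4, PTPN11, CCND1, ID2, CEBPD, GLUL, CRISPLD2, NFKBIA, CITED2, HSD17B12, ADIPOR2 and XDH. Without cKDmix replicate 2 limma kept 0 of the 37 calls, without cKDmix replicate 1 it kept 3, and without c3NC replicates 1 and 2 it kept 7 and 15. Of the 16 calls named for the overexpression, none held in every alternative that left out no library. With c3NC as the control 1 of the 16 held (ANGPTL4), 12 were lost and 3 turned sign, and 1 held in a fit of cRNA28250 and c5NC alone (IGFBP4).

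Upstream of STAT5 lie the receptor partners and JAK kinases. Of 11 such genes listed, 8 were tested, and 2 were higher and 0 lower in cKDmix (also 0 lower at an unadjusted p under 0.05, limma), a share of higher genes near that of all tested genes. The median of the 8 was 0.36, against 0.30 for all genes. JAK2, the kinase that PRLR and GHR use, was at 26.5 and 32.4 FPKM in cKDmix, against 6.83 and 12.8 FPKM in c3NC, a log2 fold change of 1.54 ± 0.40 (adjusted p = 0.0236, limma with Benjamini-Hochberg adjustment). IL6ST, the shared receptor chain of interleukin-6 family cytokines, rose by 2.15 ± 0.20 (limma, adjusted p = 0.00149). JAK2 was not called without the filter on low values (adjusted p = 0.0814). JAK1 was at 48.0 and 55.2 FPKM in cKDmix, against 37.4 and 48.7 FPKM in c3NC, and was not called. In overexpression 1 of the 8 was higher and 0 lower (4 and 0 at an unadjusted p under 0.05). It was LEPR, the leptin receptor, with a log2 fold change of 1.71 ± 0.39 (limma, adjusted p = 0.03996). LEPR was not called with quantile normalization (1.61) or with c3NC as the control (0.70).

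Of the 3 other STAT factors tested, STAT2, which carries interferon signals, was at 13.4 and 16.8 FPKM in cKDmix, against 8.70 and 7.78 FPKM in c3NC. It rose by 0.79 ± 0.22 (limma, Benjamini-Hochberg adjusted p = 0.0279), a call lost with median ratio scaling (0.44), with quantile normalization (0.46) and with c5NC as the control (0.83, adjusted p = 0.0604). STAT3, which carries interleukin-6 family signals, was at 28.4 and 33.7 FPKM in cKDmix, against 49.3 and 41.3 FPKM in c3NC; the groups did not overlap, and its unadjusted p was 0.0379. Limma called 0 of the 3 lower, with 1, STAT3, at an unadjusted p under 0.05. In overexpression limma called 0 of the 3, with 1 higher at an unadjusted p under 0.05. STAT5B was at 7.33 to 8.01 FPKM in the 4 libraries of the knockdown comparison, and whether its change differs from that of STAT2 was not tested.

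Around SOCS2 and CISH, other inhibitors of this pathway moved in both directions in the knockdown. Of 14 tested, 3 rose and 1 fell, against 26.8% and 7.56% of all tested genes, with a median of 0.20 against 0.30 for all genes. SOCS4 rose by 1.88 ± 0.25 and SOCS6 by 0.57 ± 0.18, and PTPN11, a phosphatase that also relays growth factor signals, by 1.44 ± 0.18 (limma, Benjamini-Hochberg adjusted p from 0.00367 to 0.0452). The call of SOCS6 was lost with median ratio scaling (0.25), quantile normalization (0.08), c5NC as the control (0.04) and all controls as 1 group (0.39). SOCS3, which blocks signalling through IL6ST, was at 7.97 and 6.22 FPKM in cKDmix, against 20.8 and 16.3 FPKM in c3NC, a log2 fold change of −1.27 ± 0.22 (limma, adjusted p = 0.00801). In overexpression limma called 0 of the 14, with 1 higher at an unadjusted p under 0.05.

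Genes known as STAT5 targets showed no common direction. Of 14 listed, 13 were measured and 9 tested. In cKDmix 3 were higher and 2 lower, against 26.8% and 7.56% of all tested genes. The list median was 0.16, against 0.30 for all genes. CCND1, which encodes cyclin D1 and serves in many pathways, was at 217 and 212 FPKM in cKDmix, against 24.5 and 27.6 FPKM in c3NC, a log2 fold change of 2.99 ± 0.36 (adjusted p = 0.0035, limma with Benjamini-Hochberg adjustment). PIM2, a survival kinase, rose by 1.39 and CCND2, cyclin D2, by 0.94. Neither was called with median ratio scaling (1.14 and 0.56) or with c5NC as the control (limma, adjusted p = 0.0713 and 0.0541). With quantile normalization PIM2 was also not called (0.88). PIM2 was at 3.1 and 4.42 FPKM in cKDmix, 0.86 and 0.75 FPKM in c3NC, and 0.88 and 4.09 FPKM in cRNA28250. Without its cKDmix values PIM2 would not have passed the filter, so the filter favoured its call. ID2, an inhibitor of differentiation factors, fell by 1.25 and BCL6, a repressor that STAT5 can bind, fell by 0.69 (limma, adjusted p = 0.00907 and 0.0422). In overexpression CCND1 rose by 1.83 and MYC, a growth regulator, fell by 1.25, and the other 7 were not called; the list median was −0.18, against 0.16 for all genes. With c3NC as the control neither CCND1 (1.27) nor MYC (−0.58) was called. IGF1, the growth hormone target that is a growth factor itself, reached at most 0.31 FPKM, and ELF5, the STAT5 partner of alveolar cells, at most 0.75 FPKM.

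Among genes known to be induced by the glucocorticoid receptor, 8 fell in the knockdown, in which the receptor gene NR3C1 was called higher. That NR3C1 call was lost with median ratio scaling (0.40), with quantile normalization (0.50) and with c5NC as the control (0.43). Of 19 listed targets, 17 were measured and 15 tested. In cKDmix 0 of these rose (0 higher also at an unadjusted p under 0.05, limma), where 7.56% of all tested genes were lower. The list median was −0.90, against 0.30 for all genes. CEBPD, a transcription factor, was at 329 and 234 FPKM in cKDmix, against 813 and 807 FPKM in c3NC, a log2 fold change of −1.54 ± 0.26 (adjusted p = 0.0072, limma with Benjamini-Hochberg adjustment). GLUL, glutamine synthetase, was at 62.1 and 66.0 FPKM in cKDmix, against 189 and 161 FPKM in c3NC, a log2 fold change of −1.43 ± 0.25 (limma, adjusted p = 0.00792). CRISPLD2, a secreted protein, and CEBPB, a transcription factor of mammary differentiation, had log2 fold changes of −1.68 and −1.13.

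SGK1, a kinase of ion transport, DUSP1, a phosphatase of MAP kinases, ANGPTL4, an inhibitor of lipoprotein lipase, and NFKBIA, an inhibitor of NF-kappaB, also fell in cKDmix. DUSP1 was not called there with quantile normalization (−0.73), nor ANGPTL4 and CEBPB with c5NC as the control (−0.46 and −0.60), nor SGK1 and DUSP1 without the filter (adjusted p = 0.0938 and 0.0693). Other classical targets of the same receptor were not called. FKBP5, a co-chaperone that tunes the receptor, was at 211 and 222 FPKM in cKDmix, against 190 and 205 FPKM in c3NC (log2 fold change 0.13, limma adjusted p = 0.708). TSC22D3, the leucine zipper protein GILZ, was at 106 and 97.7 FPKM in cKDmix, against 120 and 122 FPKM in c3NC (log2 fold change −0.24, adjusted p = 0.5145). PER1, a clock gene, had a log2 fold change of 0.31 and was not called.

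In overexpression, 4 of the 15 glucocorticoid receptor targets fell and 1 rose, against 2.55% and 5.07% of all tested genes, with a list median of −0.72 against 0.16 for all genes. DUSP1 was at 144 and 88.2 FPKM in cRNA28250, against 381 FPKM in c5NC, a log2 fold change of −1.75 ± 0.32 (adjusted p = 0.0183, limma with Benjamini-Hochberg adjustment). NFKBIA, GLUL and ANGPTL4 fell by 1.34, 1.33 and 1.15. KLF9, a zinc finger factor, was at 22.6 and 30.5 FPKM in cRNA28250, against 10.3 FPKM in c5NC, and rose by 1.28 (limma, adjusted p = 0.0301). With c3NC as the control KLF9 turned to −0.01 (limma, adjusted p = 0.9832), DUSP1, NFKBIA and GLUL stood at −0.74, −0.26 and −0.09, and none of the 4 was called. The difference between the knockdown and overexpression effects passed for 0 of the 15 targets in limma, with 1 higher and 3 lower at an unadjusted p under 0.05.

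**Figure D5:**
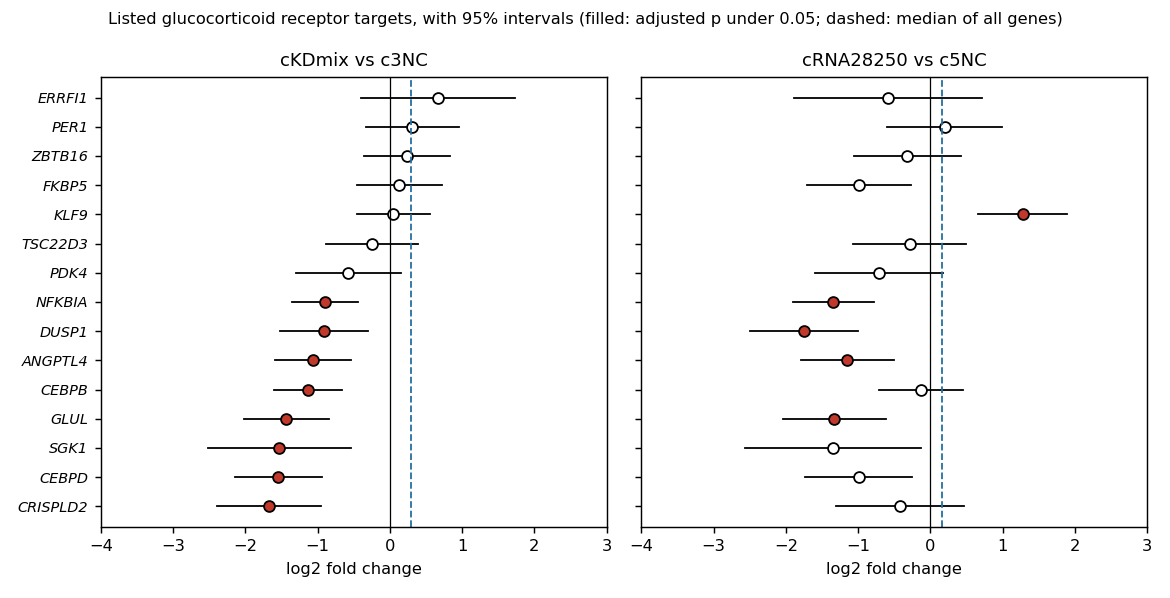
Log2 fold change (horizontal axes) of the 15 tested glucocorticoid receptor targets in cKDmix over c3NC (left) and in cRNA28250 over c5NC (right), with 95% intervals; filled points have a limma adjusted p under 0.05 and dashed lines mark the median of all tested genes. In the knockdown 8 filled points lie left of 0 and none right of it, and in overexpression 4 lie left and KLF9 lies right.

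The count of lowered targets in the knockdown held under scaling but not with fewer libraries, and that in overexpression changed with both. With quantile normalization 7 of the 15 were lower in cKDmix and with median ratio scaling 9, and against c5NC 7 were lower and 1 higher. Without c3NC replicate 1, cKDmix replicate 1 or cKDmix replicate 2 limma called 0 lower, and without c3NC replicate 2 it called 3. In overexpression 2 were lower with quantile normalization, 1 without the filter, 1 with all controls as 1 group and 0 in a fit of the compared libraries alone. There, 0 were lower without either c3NC library or either cKDmix library, 1 with c3NC as the control and 7 without cRNA28250 replicate 1. Other markers moved with these groups. The fibroblast markers summed to 13836 and 13126 FPKM in cKDmix, against 21234 and 22491 FPKM in c3NC. There 4 of 11 were lower and 1 higher, against 7.56% and 26.8% of all tested genes. They summed to 19910 and 18519 FPKM in cRNA28250, against 16699 FPKM in c5NC, with 4 of 11 higher and 0 lower. In overexpression 5.07% and 2.55% of all tested genes were higher and lower. Of 5 tested basal or myoepithelial markers, 2 were higher in knockdown and 3 in overexpression, and 0 were lower in either. Macrophage markers, of which 2 of 5 reached 1 FPKM and PTPRC stayed at or below 0.02 FPKM, summed to 65.2 and 63.7 FPKM in cKDmix, against 224 and 186 FPKM in c3NC. The 2 moved in opposite directions. CD14 was called lower, at 45.7 and 44.0 FPKM in cKDmix, against 218 and 177 FPKM in c3NC. CD68 was called higher, at 19.4 and 19.3 FPKM, against 5.86 and 8.61 FPKM. Adipocyte markers summed to 18.9 and 17.9 FPKM in cKDmix, against 4.33 and 5.84 FPKM in c3NC. All 3 of 3 tested were higher, against 26.8% of all tested genes. LEP, 1 of the 3, was at 1.38 and 2.11 FPKM in cKDmix, against 0.04 and 0.08 FPKM in c3NC. Without its cKDmix values LEP would not have passed the filter, so the filter favoured its call. The adipocyte sums were 18.4 and 25.1 FPKM in cRNA28250, against 44.2 FPKM in c5NC. In overexpression 1 of the 3 was lower and 1 higher, against 2.55% and 5.07% of all tested genes. PPARG, at 3.75 and 7.57 FPKM in cRNA28250, against 40.1 FPKM in c5NC, was the lower one. CIDEC, at 13.7 and 14.7 FPKM, against 3.61 FPKM, was the higher one. Their part in the results for NR3C1, GHR and these targets was not tested.

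Genes known as oestrogen receptor targets moved in both directions. Of 15 listed, 13 were measured and 9 tested, and in cKDmix 1 was higher (CCND1) and 2 lower, against 26.8% and 7.56% of all tested genes, with a median of −0.01 against 0.30 for all genes. GREB1, a cofactor of ESR1, was at 6.08 and 8.37 FPKM in cKDmix, against 16.5 and 18.3 FPKM in c3NC, a log2 fold change of −1.17 ± 0.34 (adjusted p = 0.0319, limma with Benjamini-Hochberg adjustment). CXCL12, a chemokine, fell by 1.04, and was not called with c5NC as the control (−0.78). In overexpression 2 were higher and 1 lower: IGFBP4, which binds insulin-like growth factors, at 22.8 and 23.6 FPKM in cRNA28250, against 4.89 FPKM in c5NC, CCND1, and CA12, a carbonic anhydrase, which fell by 1.37. With c3NC as the control IGFBP4 turned to −0.31 (limma, adjusted p = 0.3327) and CA12, at −0.69, was not called.

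Of 18 genes for chaperones and coregulators that fold or assist the steroid receptors, all tested, 3 rose and 1 fell in cKDmix, against 26.8% and 7.56% of all tested genes, with a median of 0.05 against 0.30 for all genes. NCOA2, a coactivator that binds the glucocorticoid receptor, rose by 1.12, HSP90AA1, the chaperone that holds it ready for hormone, by 0.67, and MED1, a Mediator subunit, by 0.61 (limma, Benjamini-Hochberg adjusted p from 0.0125 to 0.0480). With c5NC as the control none of these 3 was called (0.56, 0.85 and 0.32), with median ratio scaling HSP90AA1 and MED1 were not (0.29 and 0.26), and with quantile normalization NCOA2 and MED1 were not (0.61 and 0.35). CITED2, a CBP and p300 binding protein, was at 36.2 and 37.6 FPKM in cKDmix, against 189 and 192 FPKM in c3NC. In cRNA28250 it was at 145 and 51.3 FPKM, against 439 FPKM in c5NC. It fell in both, by 2.34 and 2.33. HSP90AB1, the other cytosolic HSP90, fell by 1.06 in overexpression; neither it nor CITED2 was called with c3NC as the control there (−0.67 and −1.13). In overexpression 2 of the 18 were lower and 0 higher (1 higher at an unadjusted p under 0.05, limma).

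HSD11B1, the enzyme that regenerates active glucocorticoid inside cells, was at 8.43 and 6.42 FPKM in cKDmix, against 13.4 and 11.9 FPKM in c3NC, and was not called there (log2 fold change −0.71, limma, Benjamini-Hochberg adjusted p = 0.0703). In cRNA28250 it was at 5.24 and 3.00 FPKM, against 0.77 FPKM in c5NC, and was called higher at 1.497 ± 0.32 (limma, adjusted p = 0.0337). With c3NC as the control its direction turned and it was called lower, at −1.45 (limma, adjusted p = 0.02677). HSD17B12, a steroid and fatty acid reductase, rose by 1.57 in knockdown and by 1.12 in overexpression, and HSD17B11 by 0.92 in knockdown. With the other control the HSD17B12 rise in overexpression (0.63) and the HSD17B11 rise in knockdown (0.69) were not called, nor was either with median ratio scaling (0.94 and 0.57). Of 6 tested steroid metabolism genes (14 listed, 10 measured), 2 were higher and 0 lower in each comparison. At an unadjusted p under 0.05, 1 was lower in knockdown and 0 in overexpression (limma). Of all tested genes 26.8% were higher and 7.56% lower in knockdown, and 5.07% and 2.55% in overexpression. The list medians were 0.39 in knockdown and 0.16 in overexpression, against 0.30 and 0.16 for all genes.

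Among 18 tested receptors for other mammary hormones and growth factors, 2 were higher and 3 lower in cKDmix, against 26.8% and 7.56% of all tested genes, with a median of −0.09 against 0.30 for all genes. MET, the hepatocyte growth factor receptor, rose by 2.02 and EGFR by 0.98, whereas ADIPOR2, FGFR1 and RXRA, the partner of many nuclear receptors, had log2 fold changes of −1.56, −1.39 and −0.72. With c5NC as the control MET stood at 0.29 (limma, adjusted p = 0.4905), FGFR1 at −0.70 and EGFR at −0.25, and none of these was called; EGFR was also not called with either scaling (0.64 each). In overexpression 1 was lower and 0 higher (1 higher at an unadjusted p under 0.05, limma), the lower one being RXRA, at −1.25, which with c3NC as the control was −0.05 (limma, adjusted p = 0.8952). The list of genes tied to the paracrine action of progesterone and prolactin gave 3 tested genes. Of these 2 were higher in each comparison, against 26.8% of all tested genes in knockdown and 5.07% in overexpression. They were CCND1 and CXCR4, the receptor of CXCL12. Neither is a secreted signal, and CCND1 was also counted among the STAT5 and oestrogen receptor targets. The secreted factors WNT4 and IGF2 did not pass the filter. CXCR4 was not called with median ratio scaling in either comparison (0.65 in knockdown and 1.48 in overexpression). With c3NC as the control in overexpression, neither CXCR4 (0.93) nor CCND1 (1.27) was called (limma, adjusted p = 0.1265 and 0.0945). Among milk protein and lactation genes 4 were tested. In cKDmix MFGE8, a milk fat globule protein, rose by 0.64, and XDH and CIDEA, which serve milk fat secretion, fell by 0.76 each. MFGE8 was not called with median ratio scaling (0.26), and CIDEA turned to 0.10 with c5NC as the control. In overexpression limma called 0 of these 4, with 1 higher at an unadjusted p under 0.05.

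Over the 7 libraries, the genes most like each expressed gene in log2(FPKM + 1), among tested genes whose SD was within a factor of 2 of its own, were picked by Pearson correlation, as a description. NR3C1 ran closest to TRIM33, a ubiquitin ligase, with r = 0.991, then TTC21B and EIF2AK3 (0.990 and 0.989). GHR ran closest to MOSPD2 (0.978), SLC39A10, a zinc importer (0.971), and TMEM151A (0.968). STAT5B ran closest to SUFU, a brake of Hedgehog signalling (0.987), TOE1 (0.939) and AMPD2 (0.938). SOCS2 ran closest to PHLDA1 (0.962), RUVBL2 (0.958) and UAP1L1 (0.956), and ESR1, which varied least, to MLXIP (0.926), LRRFIP2 (0.923) and IPO5 (0.881). All points of a correlation share libraries and groups, and between 3448 and 8716 genes were searched for each.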

How the data were processed

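Total RNA was sequenced from 7 libraries, per the labels' protocols. The authors deposited 1 table of FPKM values for 17374 genes, rounded to hundredths per the values themselves; for the aligner, gene models, genome build, strand setting and scaling, nothing is given in the sources used here. Gene IDs were matched to symbols with a RefSeq gene table (assembly ARS1.2) that supplied names alone, and no coordinates are given; 17007 IDs matched and 367 did not. Read depth is not known, because values near 0 did not step in whole reads that could be told apart, and no interval for counting error is given.

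A count model needs counts, so the deposited FPKM were tested on a log scale. The 12180 genes that reached 1 FPKM in 2 or more libraries were tested with limma 3.58.1 in R 4.3.3 on log2(FPKM + 1), a scale that understates changes of low values. All 7 libraries entered 1 fit with a mean per group, eBayes with a trend, 3 residual and 4.66 prior degrees of freedom, and Benjamini-Hochberg adjustment over all tested genes at 0.05. Knockdown was set against c3NC (cKDmix minus c3NC) and overexpression against c5NC, one effect was subtracted from the other (knockdown minus overexpression), and c3NC was compared with c5NC. The fit was tested on simulated data.

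The 10 genes and the gene lists were chosen with earlier results of these data known, and some related genes are not reported here. Of each list, the text names called genes with the smallest p, up to 4 per direction and comparison; the 3 genes most like each expressed gene were taken by Pearson correlation. Other genes were named after their values were seen: SGK1, DUSP1, ANGPTL4 and NFKBIA in the knockdown, FKBP5, TSC22D3, PER1, JAK1, STAT3, IGF1, ELF5, CSN1S2, CSN3, PLIN2, EPCAM, KRT8 and PTPRC. So were BTN1A1, LPO, KRT5, KRT14, TP63, WNT4 and IGF2. Genes of the family sums were named as members of their families. Each result was recomputed with quantile normalization, with median ratio scaling, with a pseudocount of 0.1, without the filter or with a filter on the mean (1 FPKM), without the variance trend, in fits of the compared groups alone, with a replicate block, with the 3 controls pooled, and without each library in turn. The other control group in each comparison was an alternative added after seeing the data.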

Additional observations from a re-analysis of the deposited data

Results flagged for a closer look

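A called difference between the knockdown and overexpression effects was the criterion for a closer look. NR3C2 did not pass the filter, and without it had a difference of 2.73 that rests on the single c5NC library. Of the 10 hormone receptor and STAT5 genes, only the 5 tested could be judged, and none of them met the criterion. Of the pathway genes named beside them, 12 had a knockdown effect that differed from the overexpression effect in limma (difference of log2 fold changes, Benjamini-Hochberg adjusted p from 0.00324 to 0.0464 over all genes tested). All 12 rest on the single c5NC library.

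The difference was positive, so that the knockdown effect was the higher one, for MET (2.60), EGFR (1.94), CA12 (1.94), MYC (1.63), IL6ST (1.58) and PTPN11 (1.35). It was negative for IGFBP4 (−2.53), HSD11B1 (−2.20), FGFR1 (−2.06), CXCL12 (−1.98), ADIPOR2 (−1.81) and CIDEA (−1.64).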

How the results depend on the processing

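The number of genes called depended on the settings. In knockdown limma called 2729 genes with quantile normalization, 6390 with only the libraries compared, 2655 with c5NC as the control and 45 to 6394 with 1 library left out (384 and 1260 without c3NC replicates 1 and 2, and 187 and 45 without cKDmix replicates 1 and 2). In overexpression it called 191 with all controls as 1 group, 231 with only the libraries compared, 525 with c3NC as the control and 308 to 2904 with 1 library left out. For the difference between effects the counts were 465 with all controls as 1 group and 93 to 3430, and for c3NC over c5NC 1325 with only the libraries compared and 192 to 1879. Quantile normalization gave 1339 higher and 1390 lower genes in knockdown and 374 and 349 in overexpression, and median ratio scaling 1801 and 1921, and 513 and 476.

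The labels share replicate numbers but do not say that they mark a shared culture. The deviations of c3NC and cKDmix replicates correlated at 0.111, those of c3NC and cRNA28250 at 0.283 and those of cKDmix and cRNA28250 at −0.152. With the replicate block limma called 615 genes for the difference between effects and 443 for c3NC over c5NC, and the NR3C1 and GHR calls in knockdown stayed (adjusted p = 0.02186 and 0.04691); ESR1 turned to 0.0219 for c3NC over c5NC, and 47 of 53 pathway gene calls stayed.

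In knockdown NR3C1 lost its call with median ratio scaling (0.40), quantile normalization (0.50) and c5NC as the control (0.43), and ranged from 0.63 to 0.88 with 1 library left out. GHR lost its call with median ratio scaling (0.25), quantile normalization (0.20), all controls as 1 group (0.39) and no filter (0.60, adjusted p = 0.0579), ranged from 0.47 to 0.73 with 1 library left out and turned to −0.0211 with c5NC as the control. The cause was not tested.

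Apart from GHR above and 5 called pathway genes (HSD11B1, CIDEA, EGFR, IGFBP4 and KLF9), the signs that turned belonged to differences without a call. With all controls as 1 group the log2 fold change was −0.24 for SOCS2 and −0.0665 for STAT5B in knockdown, 0.0878 and 0.14 in overexpression, and −0.33, −0.21 and −0.28 for SOCS2, STAT5B and GHR in the difference; HSD11B1 in overexpression was −0.47. With the other control SOCS2 and STAT5B were −0.74 and −0.28 in knockdown and 0.34 and 0.25 in overexpression; CIDEA and EGFR in knockdown were 0.10 and −0.25, and IGFBP4, KLF9 and HSD11B1 in overexpression −0.31, −0.0108 and −1.45. With median ratio scaling SOCS2 and STAT5B were −0.37 and −0.30 in knockdown, NR3C1 was −0.0744 in overexpression, and ESR1 and STAT5B were −0.0155 and −0.0377 in the difference. With quantile normalization STAT5B was −0.39 in knockdown and −0.175 in the difference. With 1 library left out, ESR1 ranged from −0.23 to 0.13 and SOCS2 from −0.11 to 0.13 in knockdown, and ESR1 from −0.22 to 0.0093 for c3NC over c5NC and from −0.0313 to 0.33 in the difference. Outside the NR3C1 and GHR results in knockdown, 243 alternative values of the 5 tested receptor, STAT5B and SOCS2 genes kept their direction and side of the threshold, 25 turned sign and 3 gained a call. For the named pathway genes that were called, 578 alternative values kept the call, 301 lost it and 6 turned sign. With no read counts, what depth allows for PRLR, PGR and CISH cannot be stated.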
